A study of Saccharomyces cerevisiae S288C with 9 samples.

Results

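The small ribosomal subunit protein (RPS) genes of budding yeast, Saccharomyces cerevisiae, were followed across wild type and both substitution strains of the histone methyltransferase Set1. They were taken by systematic gene identifier as the cytosolic RPS0A to RPS31 rows of the deposited count table, with both copies where a protein has a pair of genes, and made up 56 of its 7127 rows. The study sequenced RNA from strain S288C, harvested at mid-log phase in the rich medium YPD without treatment, in 3 libraries each of 3 genotypes. WT carries unchanged SET1, S228A has a serine of Set1 replaced by alanine and S228E has the same serine replaced by glutamate, and the labels name no other allele. The submitters call the 3 libraries of a strain biological replicates, and the labels give neither the number of independent clones per strain nor the mating type. Counts per gene cannot show the substitution itself, so the genotypes rest on the labels.

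The small (40S) ribosomal subunit consists of the 18S ribosomal RNA and the RPS proteins, binds the mRNA and reads its codons against tRNA anticodons. Yeast inherited a second copy of most RPS genes from an ancient genome duplication, and many copies have kept an intron, which is rare among yeast genes. Transcription of the ribosomal protein genes is driven mainly by Rap1, Fhl1, Ifh1 and Sfp1, follows growth through the TOR and protein kinase A pathways, and is repressed when growth stops. Set1 is the catalytic subunit of COMPASS, which methylates histone H3 at lysine 4, a mark found at the start of active genes.

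Each library held between 14455017 and 19658103 gene counts, and 6133 rows, all 56 RPS genes among them, passed the filter on low counts. WT replicate 3 stood apart for these genes. It was the lowest of the 3 WT libraries for 56 of 56 RPS genes and the lowest of all 9 libraries for 46, with a median log2 difference from the WT mean of -0.20 against -0.01 over all rows, and the large-subunit genes showed -0.19. The counts and medians against WT are therefore also given without it. The S228A libraries also differed from the others in genes of mating and cell division, chosen to show the state of the cells. The summed level of 7 mating genes was 8867 to 9664 CPM (counts scaled to library size) in S228A, 781 to 949 in WT and 997 to 1015 in S228E. The summed level of 8 cell division genes was 159 to 188 CPM in S228A, 1386 to 1744 in WT and 1518 to 1687 in S228E, and WT replicate 3 had the lowest value of WT. None of these 15 genes was at 0 in any library. By edgeR at an adjusted p under 0.05, 6 of the 15 rose and 8 fell in S228A against WT, against 15.5% and 19.4% of all rows. The 4 a-cell markers summed to 906 to 1113 CPM in WT, 4711 to 5419 in S228A and 1137 to 1170 in S228E, and the 4 alpha-cell markers to 57.8 to 61.0, 137 to 208 and 56.2 to 61.8. By the same test all 4 a-cell markers rose in S228A against WT. Of the 4 alpha-cell markers 2 rose, and 1 had a log2 fold change below 0. The part of these differences in the RPS results was not tested, and in bulk RNA fewer cells of a type and less RNA per cell cannot be told apart.

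The RPS genes lie on 14 chromosomes and encode 32 proteins, 24 from a pair of genes named A and B and 8 from a single gene. An intron is annotated in 36 of them. How far the copies of a pair can be told apart in sequencing reads depends on their sequence, because the counting had no option to include reads marked as placed at several sites. Whether such reads were marked depends on the aligner. The coding sequences of RPS21A and RPS21B are shown since this pair changed most in its balance. RPS21A (chrXI:551657-552242, plus strand) and RPS21B (chrX:156550-157273, minus strand) differ at 24 of 264 bases, with no identical run longer than 38 bases, and the differing bases are in capitals (5′ to 3′, exons joined, RefSeq R64 genome, the same assembly as sacCer3).
RPS21A: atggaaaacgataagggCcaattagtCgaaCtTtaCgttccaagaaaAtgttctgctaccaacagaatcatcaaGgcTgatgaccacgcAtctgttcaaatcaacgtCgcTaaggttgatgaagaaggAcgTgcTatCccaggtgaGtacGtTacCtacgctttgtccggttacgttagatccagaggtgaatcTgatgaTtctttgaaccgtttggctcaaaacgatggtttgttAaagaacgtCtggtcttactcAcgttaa
RPS21B: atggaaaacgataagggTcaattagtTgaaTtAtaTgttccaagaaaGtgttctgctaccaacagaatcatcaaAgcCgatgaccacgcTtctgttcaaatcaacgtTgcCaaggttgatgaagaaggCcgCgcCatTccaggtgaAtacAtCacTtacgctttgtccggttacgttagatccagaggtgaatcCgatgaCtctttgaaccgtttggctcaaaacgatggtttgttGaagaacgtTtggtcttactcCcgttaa
No stretch of 50 bases was shared between these copies or with any other row, so a match of 50 bases tells them apart. RPS30A (chrXII:712537-713158) and RPS30B (chrXV:678191-678793), both on the minus strand, are shown as the pair whose balance moved the other way. They differ at 9 of 192 bases, in capitals, and share a run of 74.
RPS30A: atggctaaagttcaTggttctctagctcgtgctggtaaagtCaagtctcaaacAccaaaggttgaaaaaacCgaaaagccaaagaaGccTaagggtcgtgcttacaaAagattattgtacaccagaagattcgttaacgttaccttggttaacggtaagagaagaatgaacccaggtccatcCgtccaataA
RPS30B: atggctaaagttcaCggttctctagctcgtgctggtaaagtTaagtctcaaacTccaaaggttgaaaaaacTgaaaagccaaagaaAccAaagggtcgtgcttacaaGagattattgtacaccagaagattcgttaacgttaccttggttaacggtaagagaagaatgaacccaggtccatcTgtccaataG
In the RPS30 pair 17.5% of the 50-base windows of each gene were shared. This part was higher for RPS6 (72.1%), RPS4 (46.8%) and RPS24 (38.2%), so the levels of these 6 genes and the split of their pairs are uncertain. RPS6A and RPS6B are 99.2% identical in coding sequence, and the most diverged pair, RPS27, is 84.3% identical. RPS2 (YGL123W) overlaps another row of the table on the opposite strand over 30.2% of its exon bases and RPS27A over 47.0%, and reads that fell on both rows were counted for neither.

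In WT the levels of the RPS genes per length of exon spanned 45.7-fold. Levels in this paragraph are CPM per kb of exon, as mean ± SD of the 3 WT libraries. The highest was RPS31 (YLR167W) at 5169.9 ± 609, which encodes its ribosomal protein as a fusion with ubiquitin. Next came RPS20, for a protein of the subunit's head, at 4852 ± 406, and the gap between these levels was smaller than their SDs. Among proteins near the decoding site and the path of the mRNA, the level of RPS15 was 4147 ± 471, that of RPS2 2302 ± 305 and that of RPS3 2086 ± 247. The lowest levels were those of RPS9A (YPL081W) at 113 ± 11.6, RPS14B (YJL191W) at 401 ± 37.4 and RPS7B (YNL096C) at 497 ± 67.4. Each of these 3 is the minor copy of its pair, and RPS14B is known for being held down by its own protein through its transcript. RPS9A lay below the other two by more than their SDs, whereas RPS14B and RPS7B differed by less than the sum of their SDs.

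The spread was smaller per protein than per gene. When the copies were added, the level per protein ranged from 2034 to 5170, the value of RPS31, with a median of 3361, a 2.54-fold range. The 8 single genes had a median of 3776 CPM per kb and the 48 paired genes one of 1637. The 36 genes with an intron had a median of 1637 CPM per kb and the 20 without one a median of 2284. As a description across genes, which are not independent, the level per kb was lower in genes with a larger share of shared 50-base windows (Spearman's rho -0.34 over 56 genes). The order of the genes differed little between strains, with Spearman's rho of 0.98 between WT and S228A and 0.99 between WT and S228E.

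**Figure D1:**
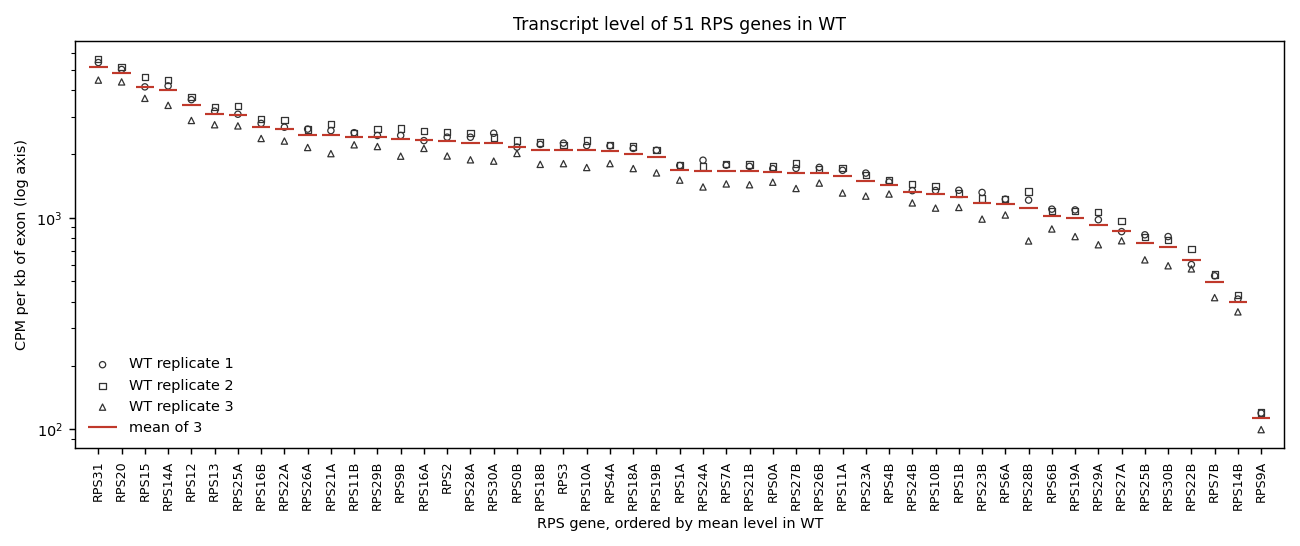
Level of 51 RPS genes in WT, in CPM per kb of exon on a log axis, with 1 symbol per library and a bar for the mean of 3. RPS31 and RPS20 lie at the top and RPS9A lies at the bottom at 113, and the triangles of WT replicate 3 are the lowest WT symbol for every gene drawn.

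Within the pairs, gene A held the larger part of the counts in 16 of 24 and gene B in 8, and 8 pairs were more than 2-fold uneven. The most uneven was RPS9, whose protein binds 18S RNA early in assembly: RPS9A held 4.69%, 4.39% and 4.90% of the pair in the 3 WT libraries, so RPS9B was 20.5-fold higher. RPS14A held 91.0%, 91.2% and 90.4% of the RPS14 pair, a 9.93-fold excess over RPS14B. RPS22A held 81.7%, 80.2% and 80.1% and RPS25A 78.8%, 80.5% and 81.1% of their pairs, 4.17-fold and 4.04-fold over the B copy. The most even pairs were RPS18 with 48.9%, 48.9% and 48.9% from gene A, RPS6 with 52.7%, 53.2% and 53.8%, RPS16 with 45.3%, 46.8% and 47.3% and RPS24 with 58.2%, 54.7% and 54.3%. The split varied little between replicates, with a median SD within a strain of 0.697 percentage points and a largest one of 3.95. The copy that was higher in WT was higher in all 9 libraries for 23 of the 24 pairs, and RPS21 was the exception. RPS9A held 4.74%, 5.03% and 5.03% of its pair in S228A and 5.41%, 5.59% and 4.92% in S228E, and RPS14A 89.3%, 90.2% and 90.02% and 90.4%, 90.1% and 91.2%.

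Added together, the RPS genes took 5.20%, 5.31% and 4.41% of all gene counts in the 3 WT libraries, 5.78%, 5.65% and 5.62% in S228A, and 4.83%, 4.997% and 4.81% in S228E. All 3 S228A libraries lay above all libraries of both other strains, while the S228E values fell between WT replicate 3 and the other WT libraries. The mean share was 4.97% ± 0.487 (SD, n = 3) in WT, 5.68% ± 0.0865 in S228A and 4.88% ± 0.105 in S228E. By the exact permutation test, two-sided, p was 0.1 for S228A against WT and for S228E against S228A, the smallest that 3 libraries against 3 can give, and 0.9 for S228E against WT. Without WT replicate 3 the WT mean was 5.25%, still below every S228A library.

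**Figure D2:**
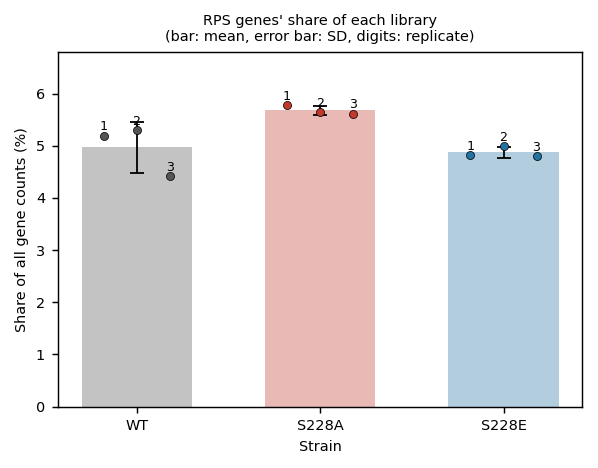
Share of all gene counts that fell on the 56 RPS genes, in percent, for each library (points, with the replicate number), with the mean (bar) and SD (error bar) of the 3 libraries of a strain. The S228A libraries sit between 5.62% and 5.78%, and WT replicate 3 is lowest at 4.41%.

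In S228A against WT the RPS genes shifted upwards by a small amount. No RPS gene passed the study's thresholds of a fold change over 1.5 with an adjusted p under 0.05, which 4.37% of all tested rows passed upwards and 7.81% downwards. At an adjusted p under 0.05 alone, by edgeR's quasi-likelihood test with Benjamini-Hochberg adjustment over all 6133 rows, 18 of 56 RPS genes (32.1%) rose and 0 fell, against 15.5% of all rows that rose and 19.4% that fell. In 23 of 56 (41.1%) every S228A library exceeded every WT library, against 20.2% of all rows. The log2 fold changes ran from -0.16 for RPS28A to 0.56 for RPS21B with a median of 0.18, beside -0.01 over all rows, and 50 of 56 were above 0. Without WT replicate 3 the count that rose was 14 (25%), against 15.7% of all rows, and the median was 0.11. Every S228A library then exceeded every remaining WT library in 23 RPS genes (41.1%) against 26.5% of rows. In 5 RPS genes (8.93%) every S228A library was below the remaining WT libraries, against 28.4% of rows. Without S228A replicate 1 the count that rose was 12, and the share of all rows was not computed for that fit.

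RPS21B (YJL136C) changed most by p. Its protein sits on the solvent side of the subunit next to Rps0 and is needed for maturation of the 18S RNA. It stood at 462, 471 and 378 CPM in the WT libraries and 664, 656 and 620.3 in S228A, without overlap and with the WT replicate 3 value the lowest. Its log2 fold change was 0.56 ± 0.10 (SE; adjusted p 0.000677), just short of the 1.5-fold threshold of 0.58, and it passed that threshold when WT replicate 1, WT replicate 2 or S228A replicate 3 was left out. The other copy, RPS21A, was at 682, 731 and 531 CPM in WT and 615, 554 and 646 in S228A, with overlapping groups and a log2 fold change of -0.10 ± 0.11 (adjusted p 0.521).

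RPS1A (YLR441C, chrXII:1018141-1018908), for a protein at the exit of the mRNA channel, rose from 1357, 1360.1 and 1158 CPM in WT to 1736, 1876 and 1542 in S228A. The groups did not overlap, and the log2 fold change was 0.41 ± 0.10 (adjusted p 0.00553); RPS1B also passed, at 0.35 ± 0.09 (adjusted p 0.0126). Both copies of RPS26, whose protein lies at the same exit and contacts the mRNA upstream of the start codon, rose as well. RPS26A (YGL189C) went from 945, 942 and 774 to 1157, 1265 and 1069 CPM, a log2 fold change of 0.39 ± 0.10 (adjusted p 0.00789). RPS26B (YER131W) went from 623, 612 and 525 to 741, 837 and 677 CPM, a log2 fold change of 0.36 ± 0.09 (adjusted p 0.0108). In neither copy of RPS26 did the 3 S228A values overlap those of WT.

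Among the proteins of the head, RPS20 (YHL015W) encodes a target of ubiquitin marking on stalled ribosomes. The gene rose from 1839, 1883 and 1606 CPM to 2413, 2281 and 2195, every S228A library above every WT one, with a log2 fold change of 0.37 ± 0.09 (adjusted p 0.00565). RPS10B (YMR230W), for another head protein, was at 428, 451 and 353 CPM in WT and 569, 505 and 543 in S228A, a log2 fold change of 0.39 ± 0.09 (adjusted p 0.00608) without overlap. RPS15, RPS25B, RPS10A and RPS18B also passed, at 0.33 ± 0.10, 0.31 ± 0.09, 0.28 ± 0.10 and 0.25 ± 0.09. RPS12 did not pass, at -0.02 ± 0.10. The same held for RPS3 and RPS31, at 0.10 ± 0.09 and 0.23 ± 0.10.

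Of the proteins of the body, Rps4 and Rps22 join the subunit early in its assembly. RPS22B (YLR367W, chrXII:856442-857317), which unlike RPS22A has an intron, was at 236, 281 and 225 CPM in WT and 350.3, 291 and 358 in S228A. Its log2 fold change was 0.43 ± 0.10 (adjusted p 0.00697) with no overlap, though the lowest S228A value lay close to the highest WT one. RPS4B (YHR203C) was at 1160.1, 1188 and 1018 CPM in WT and 1439.7, 1369.6 and 1393 in S228A, a log2 fold change of 0.32 ± 0.08 (adjusted p 0.00704), again without overlap. RPS7B, RPS9A and RPS11B also passed, with log2 fold changes from 0.25 for RPS11B to 0.34 for RPS7B. The copies for Rps23, a protein of the decoding centre, did not pass, at 0.04 ± 0.09 for RPS23A and 0.02 ± 0.10 for RPS23B. Genes with an intron had a median of 0.17 with 10 of 36 passing, while 15.5% of all rows rose. Those without one had a median of 0.23 with 8 of 20 passing. Without WT replicate 3 the medians were 0.08 and 0.16, with 6 (16.7%) and 8 (40%) passing. In that fit 15.7% of all rows rose, so the share of the intron genes was near that of all rows. Without WT replicate 3 the 8 genes given in full, from RPS21B to RPS26B, had log2 fold changes from 0.26 for RPS4B to 0.48 for RPS21B and all passed.

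**Figure D3:**
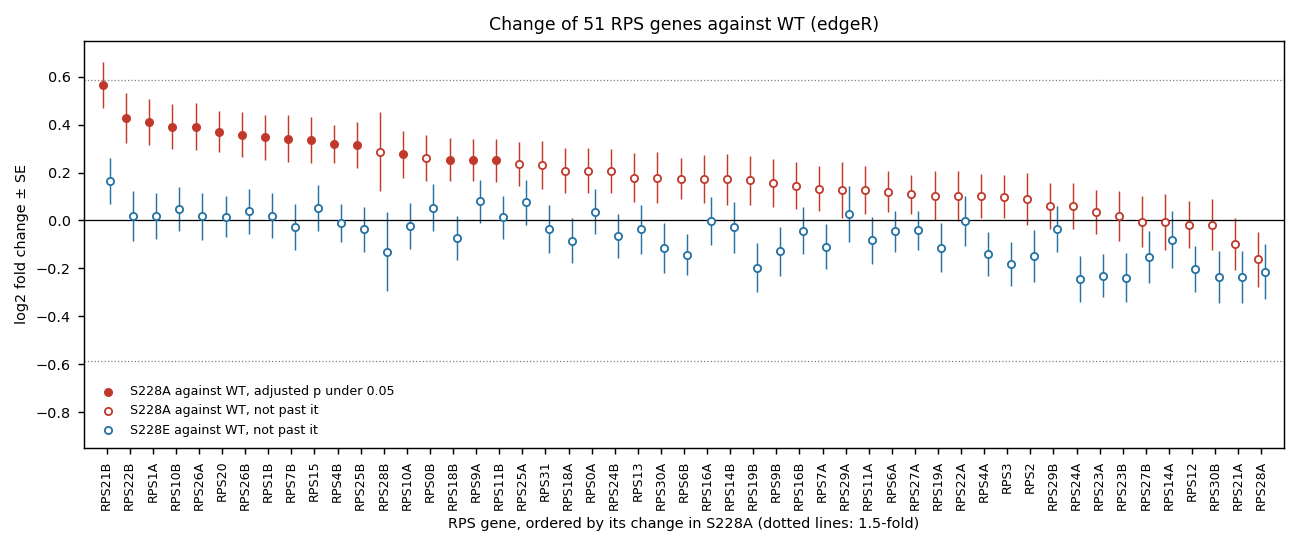
Log2 fold change ± SE from edgeR of 51 RPS genes in S228A (red) and S228E (blue) against WT, ordered by the change in S228A; filled symbols passed an adjusted p of 0.05 and dotted lines mark a 1.5-fold change. The 16 filled symbols are all S228A and all above 0, none lies beyond a dotted line, and the S228E values lie between -0.24 and 0.16.

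In S228E against WT no RPS gene passed an adjusted p under 0.05, and 0 of 56 passed by DESeq2. Calls were rare in the whole table, 0.0326% of rows upwards and 0.0163% downwards, and at an unadjusted p under 0.05 there were 5 RPS genes and 345 of all rows. The log2 fold changes had a median of -0.04, beside -0.004 over all rows, with 40 of 56 below 0. This median was 0.02 without WT replicate 2 and -0.14 without WT replicate 3. No RPS gene had groups free of overlap, against 6.73% of rows upwards and 7.68% downwards. Without WT replicate 3 all S228E libraries were below both remaining WT libraries in 36 of 56 (64.3%), against 17% of rows, and 0 RPS genes passed.

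The smallest p-values in S228E belonged to RPS23A, RPS24A and RPS23B. RPS23A, for the decoding-centre protein, stood at 712, 697 and 555 CPM in WT and 562, 555 and 556 in S228E, where WT replicate 3 lay below all of S228E and the other WT libraries lay above. Its log2 difference was -0.23 ± 0.09 (adjusted p 0.767). RPS24A was at 764, 713 and 571 CPM in WT and 567, 591 and 571 in S228E, a log2 difference of -0.24 ± 0.10 (adjusted p 0.767), with the counts of this pair uncertain. In RPS23B and RPS24A the value of WT replicate 3 lay within the S228E range. RPS23B stood at 577, 541 and 432 CPM in WT and 417, 442 and 455 in S228E, a log2 difference of -0.24 ± 0.10 (adjusted p 0.828). Without WT replicate 3 the differences of these 3 genes were -0.34, -0.36 and -0.35, with adjusted p of 0.14 to 0.248. RPS21B had the highest value of the 56, at 0.16 ± 0.10 (adjusted p 0.855).

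The substitution strains were compared with each other in the same fit. This comparison shares its S228A libraries with that against WT, so its values are given beside those above and not as a separate line of evidence. All 56 RPS genes had lower fitted levels in S228E than in S228A, with a median log2 difference of -0.26 beside -0.004 over all rows. Again 0 passed with a fold over 1.5, against 4.35% of rows downwards and 6.73% upwards. At an adjusted p under 0.05, 24 of 56 (42.9%) were lower and 0 higher, against 13.6% and 16.1% of all rows, and 42 (75%) had every S228E library below every S228A library, against 22.2%. The count of 24 depended on single libraries: it was 10 without S228A replicate 1, 12 without S228E replicate 1, 15 without S228E replicate 3 and 38 without WT replicate 3, a library of neither strain compared. The share of all rows was not computed for these fits, so whether the whole table moved in the same way is not known.

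RPS21B was at 453, 544 and 473 CPM in S228E, all below its S228A values given above, a log2 difference of -0.40 ± 0.10 (adjusted p 0.00733). RPS20 was at 1728, 1894 and 1766 CPM in S228E, a log2 difference of -0.35 ± 0.09 (adjusted p 0.0083). In both genes the S228E values overlapped those of WT. RPS1A (-0.39 ± 0.10), RPS22B (-0.41 ± 0.10) and RPS4B (-0.33 ± 0.08) were lower too, with adjusted p of 0.00823, 0.0102 and 0.0067. A further 16 genes that passed had log2 differences from -0.27 for RPS23A to -0.37 for RPS26A.

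The balance within the pairs was tested as the log2 ratio of gene A to gene B in each library, which needs no scaling between libraries, with limma over 60 A/B pairs of the genome, 24 RPS, 34 of the large subunit and 2 others. In S228A against WT the ratio changed in 6 of 24 RPS pairs (25.0%), 1 upwards and 5 downwards, against 26.7% of the 60 pairs (13.3% in each direction), and groups did not overlap in 10 (41.7%) against 40%. Both shares were close to those of all pairs. In the exact permutation test each of these 6 pairs reached 0.1, the smallest possible value with 3 libraries against 3. A second test of the same counts, edgeR's diffSpliceDGE, called 1 of the 6, RPS21. With WT replicate 3 left out the ratio changed in 1 pair upwards and 6 downwards (29.2% against 26.7% of all pairs), and groups did not overlap in 15 (62.5%) against 55%.

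RPS21 changed most. RPS21A held 59.6%, 60.8% and 58.4% of the pair's counts in WT, 48.1%, 45.8% and 51.0% in S228A and 53.8%, 51.2% and 53.8% in S228E. Every library of either substitution strain was below every WT library, and RPS21B became the more abundant copy in S228A replicates 1 and 2. The mean share of RPS21A was 59.6% ± 1.22 (SD, n = 3) in WT, 48.3% ± 2.61 in S228A and 52.9% ± 1.53 in S228E. The log2 ratio fell by 0.66 ± 0.08 (SE) in S228A (adjusted p 0.000391) and by 0.39 ± 0.08 in S228E (adjusted p 0.042), where it was the only RPS pair called, against 5% of all pairs (3.33% upwards and 1.67% downwards). The S228E call was lost with adjusted p of 0.0840 to 0.171 when WT replicate 1, WT replicate 2, S228A replicate 1 or S228E replicate 2 was left out. It was also lost with diffSpliceDGE, with adjusted p of 0.564, and with the replicate number as a block, with adjusted p of 0.101. Between S228E and S228A the difference of 0.27 ± 0.08 did not pass (adjusted p 0.0518).

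RPS22A held 81.7%, 80.2% and 80.1% of the RPS22 pair in WT and 76.6%, 76.8% and 77.3% in S228A, without overlap, and 80.7%, 79.4% and 81.2% in S228E. The log2 ratio fell by 0.33 ± 0.06 in S228A (adjusted p 0.00254), differed from WT in S228E by -0.02 ± 0.06 (adjusted p 0.91) and was higher in S228E than in S228A by 0.31 ± 0.06 (adjusted p 0.00976). The last call ended without S228A replicate 1 or S228E replicate 3, with adjusted p of 0.0592 and 0.0528, and with diffSpliceDGE, with adjusted p of 0.421. In both RPS21 and RPS22 it was the B gene that passed the test of levels in S228A, while RPS21A and RPS22A did not.

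**Figure D4:**
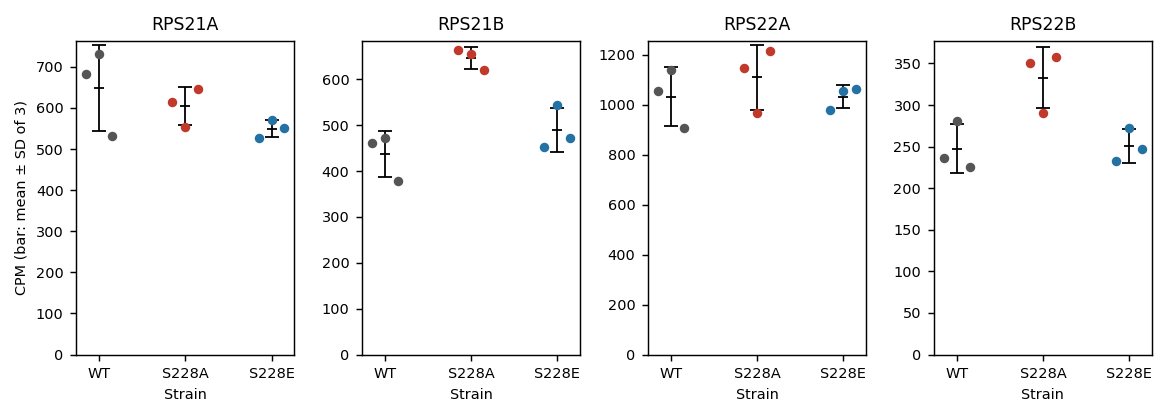
Levels in CPM of both genes of the RPS21 and RPS22 pairs in each library (points) with the mean ± SD of 3 libraries per strain, each panel on its own axis from 0. RPS21B lies between 620.3 and 664 in S228A and between 378 and 471 in WT, while RPS21A overlaps between these strains.

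Other changed ratios in S228A were smaller or less firm. RPS28, whose protein lies at the mRNA exit and whose B copy is known for feedback on its own mRNA, had 66.5%, 65.4% and 70.7% from gene A in WT and 60.5%, 60.3% and 59.4% in S228A, a log2 ratio lower by 0.47 ± 0.12 (adjusted p 0.0177). Without WT replicate 3, S228A replicate 1 or S228A replicate 2 its adjusted p was 0.0532 to 0.0548. RPS4A went from 59.7%, 59.3% and 58.2% to 55.6%, 54.8% and 55.9% of its pair (log2 ratio -0.21 ± 0.04, adjusted p 0.00421), in a pair that shares 46.8% of its 50-base windows. RPS30 was the pair that moved towards gene A, from 75.5%, 75.3% and 75.7% to 77.0%, 79.0% and 77.7% (log2 ratio 0.19 ± 0.05, adjusted p 0.0103). In these pairs the S228A libraries lay outside the WT range. In the fit without WT replicate 3 the log2 ratios of RPS21, RPS22, RPS4 and RPS30 differed by -0.70, -0.35, -0.24 and 0.20 in S228A against WT, with adjusted p of 0.00175, 0.00445, 0.00445 and 0.0222, and that of RPS21 in S228E by -0.43 with adjusted p of 0.0356.

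Between S228E and S228A the ratio differed in RPS22 and in RPS6, both upwards, against 10% of all pairs (6.67% upwards and 3.33% downwards), and groups did not overlap in 8 of 24 (33.3%) against 30%. RPS6, the target of the TOR-controlled kinase Ypk3, had 52.3%, 53.0% and 51.5% from gene A in S228A and 54.8%, 55.1% and 54.8% in S228E, a log2 difference of 0.15 ± 0.04 (adjusted p 0.028). This rests on the few bases that distinguish the copies, and it did not pass when S228A replicate 1, S228A replicate 3 or any S228E library was left out. Against WT, groups did not overlap in 7 of 24 RPS pairs (29.2%) in S228E, against 28.3% of all pairs, and without WT replicate 3 in 13 (54.2%) against 51.7%.

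**Figure D5:**
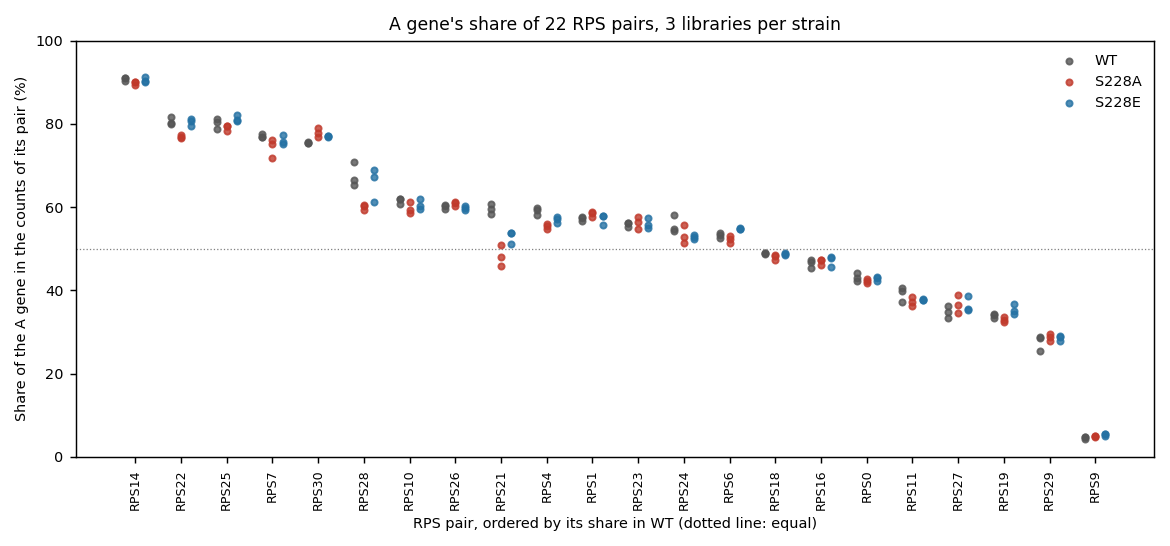
Share of gene A in the counts of 22 RPS pairs, in percent, with 1 point per library and the strains side by side. RPS21 is the pair whose points cross the line of equal shares, from 58.4% to 60.8% in WT down to 45.8% to 51.0% in S228A.

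Stretches of DNA upstream of the RPS21 and RPS22 genes are shown, the pairs whose ratio had the smallest p by limma in S228A against WT. They lie at chrXI:551357-551506 (RPS21A, plus strand), chrX:157424-157573 (RPS21B, minus), chrX:75453-75602 (RPS22A, minus) and chrXII:856142-856291 (RPS22B, plus) in R64. The windows run from 300 to 151 bases before the start codon, on the coding strand, and capitals mark matches to an Fhl1-like motif (GACGC on either strand) or a Rap1-like motif (ACCCNNACA on either strand).
RPS21A: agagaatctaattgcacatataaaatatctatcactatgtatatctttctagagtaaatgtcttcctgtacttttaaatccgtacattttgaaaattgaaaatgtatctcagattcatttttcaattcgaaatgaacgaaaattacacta
RPS21B: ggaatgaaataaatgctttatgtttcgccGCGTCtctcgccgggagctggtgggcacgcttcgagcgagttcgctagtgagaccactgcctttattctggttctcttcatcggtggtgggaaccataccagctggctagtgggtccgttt
RPS22A: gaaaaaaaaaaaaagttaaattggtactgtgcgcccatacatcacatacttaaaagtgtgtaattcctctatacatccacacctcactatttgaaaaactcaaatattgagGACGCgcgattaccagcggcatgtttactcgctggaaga
RPS22B: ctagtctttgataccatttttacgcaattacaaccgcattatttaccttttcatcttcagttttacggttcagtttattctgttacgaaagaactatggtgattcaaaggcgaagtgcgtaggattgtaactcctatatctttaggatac
The RPS21B stretch holds 1 Fhl1-like match, beginning 271 bases before the start codon, and the RPS22A stretch 1, at 189 bases. The RPS21A and RPS22B stretches hold no match. The windows were set from the start codon and not from the start of transcription, so a stretch may lie within the transcript and not in the promoter. Whether a match goes with the change of a copy was not tested. The stretches also differ in base composition, with 26.0% G and C for RPS21A and 54.0% for RPS21B. Over the whole 300 bases, 37.5% of the 56 RPS genes held the Fhl1-like letters against 18.6% of 6001 genes with the same window, and 10.7% held the Rap1-like ones against 3.12%. In 500 bases the Rap1-like share was 32.1% against 5.47%. AAATTTT, taken as Ifh1/Sfp1-like, was in 26.8% against 24.4%, an Abf1-like motif in 32.1% against 30.7%, and the Tbf1-like AACCCTAA or AGCCCTAA in 0% against 1.23%. A match is no proof of binding, and its absence says only that these letters are not in the window.

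Genes that work with the 40S subunit were read from the same fit. Of the 79 tested genes for proteins of the large (60S) subunit, 28 (35.4%) rose in S228A against WT and 1 (1.27%) fell, against 15.5% and 19.4% of all rows, with a median log2 fold change of 0.21 beside 0.18 for RPS. With WT replicate 3 left out 15 (19.0%) rose and 4 fell, against 15.7% and 17.8% of all rows, and the median was 0.12. RPL15B fell, at -0.52 ± 0.10 (adjusted p 0.00181), and RPL20B rose by 0.49 ± 0.09 (adjusted p 0.00106). Of 21 genes for initiation factors, their regulators or 40S-bound proteins, 11 (52.4%) rose and 0 fell, against the same 15.5% and 19.4%. Without WT replicate 3 these counts were 7 (33.3%) and 0, against 15.7% and 17.8% of all rows. Among those that rose were GCN2, the kinase that senses uncharged tRNA (0.43 ± 0.06, adjusted p 0.000243), and the eIF2B subunits GCD7 (0.38 ± 0.08, adjusted p 0.00315) and GCD1 (0.36 ± 0.08, adjusted p 0.00347). Of 33 factors that assemble or escort the 40S, 11 (33.3%) rose and 4 (12.1%) fell, against 15.5% and 19.4% of all rows. With WT replicate 3 left out 7 (21.2%) rose and 4 (12.1%) fell, nearer to the 15.7% and 17.8% of all rows in that fit. PSE1, a nuclear import receptor for ribosomal proteins, rose by 0.60 ± 0.06 (adjusted p 1.33e-05) and passed the 1.5-fold threshold, as did BUD23, which methylates the 18S RNA, downwards at -0.61 ± 0.17 (adjusted p 0.0132). ETT1 rose by 0.49 ± 0.09 (adjusted p 0.000851) and HRR25, a kinase of late 40S maturation, by 0.40 ± 0.07 (adjusted p 0.00111).

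Of 24 transcription factors and TOR regulators of ribosomal protein genes, 4 (16.7%) rose and 8 (33.3%) fell in S228A, against 15.5% and 19.4% of all rows. With WT replicate 3 left out 4 (16.7%) rose and 7 (29.2%) fell, against 15.7% and 17.8% of all rows. The share that rose was near that of all rows. FHL1, whose protein binds ribosomal protein promoters, fell by 0.54 ± 0.07 (adjusted p 0.000111). REB1, TBF1 and ABF1, general regulatory factors, fell beyond 1.5-fold, at -0.70 ± 0.09, -0.87 ± 0.11 and -0.77 ± 0.11 (adjusted p 4.16e-05, 4.4e-05 and 0.000209). In S228E against WT 0 genes of these 4 lists passed an adjusted p under 0.05 by edgeR, against 0.0326% of all rows upwards and 0.0163% downwards. At an unadjusted p under 0.05 there were 4 of 79 large-subunit genes, 1 of 21 initiation factors, 4 of 33 assembly factors and 1 of 24 regulators, against 345 of 6133 rows. Without WT replicate 3, 1 large-subunit gene (1.27%) was lower at an adjusted p under 0.05, against 0.0324% of all rows. In S228E against S228A, 36 of the 79 large-subunit genes (45.6%) were lower and 1 higher, against 13.6% and 16.1% of all rows, beside the 24 and 0 of RPS, and FHL1, REB1, ABF1 and TBF1 were higher by 0.74 ± 0.07, 0.76 ± 0.09, 0.84 ± 0.11 and 0.78 ± 0.11.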

How the data were processed

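What the authors deposited is a single table of unnormalized gene counts. Per the file headers, featureCounts 2.0.1 counted read pairs on exons of the Ensembl annotation of sacCer3, with no strand option, no option for multiply placed reads and none for reads that overlap more than 1 gene. Which aligner was run was not given in the sources used here. Bowtie 0.12.2 is named in the submitters' processing notes without a role. Per the labels' protocols a KAPA kit was used. Their extraction text is about chromatin immunoprecipitation, whereas total RNA by phenol-chloroform is what the design text gives. Where the aligner marked multiply placed reads, they were left out, which lowers near-identical copies.

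Rows were filtered with filterByExpr, scaled by TMM (factors 0.972 to 1.03) and tested with edgeR 4.0.16 in 1 fit of all 9 libraries with a term per strain (common biological coefficient of variation 9.61%; R 4.3.3). SEs are |log2 fold change|/√F. Paralog ratios, log2((A + 0.5)/(B + 0.5)) of the counts, were tested with limma 3.58.1. Alternatives included DESeq2 1.42.0, RLE and upper-quartile scaling, no filter, the 6 libraries compared, a replicate block and leaving out each library. Splits, overlaps and gene lists without WT replicate 3 were added after the data were seen. No 2 replicates matched within counting noise (chi-square per gene 6.28 to 57.2), and each library was treated as a sample. This check cannot show that the libraries come from independent cultures. The tests were first run on simulated counts, drawn separately for each gene. The simulation held no shared shift of the RPS genes in 1 library, as seen in WT replicate 3, so it does not show how the tests behave there.

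Sequences and introns are from RefSeq R64, in which all 56 genes have the table's coordinates; of all rows 6047 had a RefSeq identifier. Members, gene lists and tests were chosen with earlier results of these data known. Full statistics were given to genes past the thresholds, to up to 8 per direction and comparison with the smallest p at an adjusted p under 0.05 or the 3 smallest where fewer passed, to the 3 highest and lowest levels, the 4 most and least even pairs, and the changed pairs. Of each gene list, genes past the thresholds and up to 3 more were named, and others are given as values. Some results that this rule selects are not reported here.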

Additional observations from a re-analysis of the deposited data

How the results depend on the processing

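The 0 RPS genes past both thresholds held in every alternative run except that 0 to 1 rose in S228A when 1 library was left out. The 18 RPS genes that rose at an adjusted p under 0.05 became 12 to 23 with 1 library left out and 14 to 22 otherwise. In S228E against S228A the 24 became 10 to 38 with 1 library left out and 20 to 36 otherwise. Of these counts only that of S228A against WT without WT replicate 3 has a share of all rows beside it. The RPS median in S228E against WT ranged from -0.14 to 0.0245 with 1 library left out, and no other value changed direction. It was -0.07 to -0.03 under the other settings, and the cause was not tested. The RPS21B fold change ranged from 0.48 to 0.62 with adjusted p of 1.13e-07 to 0.00394. Paralog ratios depended more on the test. With diffSpliceDGE the RPS pairs called were 0 higher and 1 lower in S228A against WT, 0 lower in S228E against WT and 0 higher in S228E against S228A, and with 1 library left out 1 higher and 4 to 6 lower, 0 to 1 higher and 0 to 1 lower, and 0 to 3 higher. Deviations from the strain mean correlated at -0.29 to 0.27 between same-numbered libraries and at -0.30 to 0.31 between differently numbered ones. With 3 libraries per strain centred on their own mean, this check cannot show whether the numbers pair the samples. A fit with the replicate number as a block gave 0 lower ratios in S228E against WT (RPS21, adjusted p 0.101) and 1 higher in S228E against S228A (RPS6, adjusted p 0.0630). It gave 16 and 21 RPS genes in place of 18 and 24, and over all rows 1 higher and 0 lower in S228E against WT. Those 2 higher and 1 lower rows became 1 and 0 with the 6 libraries compared, 2 lower with DESeq2, and 1 to 2 and 0 to 1 with 1 library left out. For the fold changes given in full and the changed ratios, each alternative run of each value was counted separately. Of these re-runs 397 kept direction and side of the threshold, and 24, all of ratios, lost the threshold. The ratio of RPS21 in S228A against WT was the only changed ratio that passed in every run. The lowest RPS value, of RPS9A in WT replicate 3, was 59.2 CPM.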

Other observations

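Among the 18 RPS genes that rose in S228A against WT at an adjusted p under 0.05, 12 were B copies (50% of 24), 4 were A copies (16.7% of 24, near the share of all rows) and 2 were single genes, against 15.5% of all rows that rose, a split looked at after the values were seen. The median log2 fold change was 0.26 over the 24 B copies and 0.13 over the 24 A copies. When WT replicate 3 was left out 10 B and 2 A copies rose, with medians of 0.18 and 0.05, against 15.7% of all rows. Counted by level instead, 11 of the 24 copies that were lower in WT rose, with a median of 0.23, and 5 of the 24 higher copies, with a median of 0.14. Without WT replicate 3 these counts were 10 and 2. Lower and higher were set from WT libraries that also enter the fold changes, so this split is not independent of them. The 34 large-subunit pairs gave 12 A and 13 B copies that rose, with medians of 0.21 and 0.22, and 7 and 7 without WT replicate 3. In S228E against WT the RPS medians were -0.04 for B and -0.08 for A copies, and 0 copies passed; without WT replicate 3 they were -0.13 and -0.19.

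Added over its genes, the transcript level per protein in S228A was highest for RPS20 at 6274 ± 300.4 CPM per kb (SD, n = 3), against 4852.5 ± 406 in WT and 4908 ± 238 in S228E. RPS31 followed with 6069 ± 376, against 5170 ± 609 and 5046.5 ± 268. Rps1, at the mRNA exit, had a summed level of 3836 ± 371 in S228A against 2938.5 ± 271 in WT, and Rps26 5320 ± 496 against 4093 ± 420.2. Rps12 had 3365 ± 154 in S228A against 3405 ± 453, and Rps14 4464 ± 619 against 4428 ± 597, differences within the SDs.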
